A study of Mus musculus with 9 samples.

Results

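The subject is a group of 9 mouse genes chosen by symbol: the class I histone deacetylases Hdac1, Hdac2, Hdac3 and Hdac8, the corepressor scaffolds Sin3a and Ncor1, the glycosyltransferase gene Ogt with its substrate Hcfc1, and Nfkbiz. All 9 were found among the 47731 genes of the RNA table. RNA was sequenced in 2 libraries of macrophages labelled Tet2 knockout and 3 labelled wild type, and 5-hydroxymethylcytosine (5hmC) in 2 libraries of each genotype. The cells of all groups were treated with M-CSF, the macrophage growth factor, at passage 0. The labels name no Tet2 allele, strain, age or tissue of origin and do not say whether replicates came from separate animals. A p-value here weighs a difference only against the variation among these libraries, and that variation may be technical.

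TET2 oxidises 5-methylcytosine in DNA to 5hmC and also works as a scaffold for other chromatin proteins. In macrophages it is known for bringing HDAC2 to the gene of the cytokine interleukin 6, guided by IκBζ, the nuclear IκB protein that Nfkbiz encodes. Class I deacetylases remove acetyl groups from histones: HDAC1 and HDAC2 inside the SIN3, NuRD and CoREST complexes, HDAC3 inside the NCoR/SMRT complex. OGT adds O-linked N-acetylglucosamine to nuclear proteins, binds TET2 and TET3, and glycosylates and cleaves HCF1, the chromatin cofactor encoded by Hcfc1.

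The RNA libraries held 16053426 to 56394358 counts in genes. Levels are given as normalised CPM, which are counts per 1000000 after TMM scaling of each library total, and differences as log2 of knockout over wild type with the standard error. All 8 macrophage markers were present in all 5 libraries, Csf1r (1057 to 2440.2 normalised CPM) and Lyz2 (7855 to 15718) with overlap of the genotypes. The other 6 did not overlap: Adgre1, Itgam, Fcgr1 and Cd14 were above the wild type in both knockout libraries, and Cd68 and Mertk below it. Of all genes tested, 36.2% did not overlap in either direction. None of the 8 passed in edgeR, which called 0.0135% of all genes. An unadjusted p under 0.05 in edgeR was reached by 5, against 13.8% of all genes. DESeq2 called 4, against 7.75% of all genes. The 12 stromal and bone markers summed to 5072 normalised CPM in wild-type replicate 3 and to 7.22 to 18.4 in the other libraries. The 7 B cell markers summed to 133 and 74.5 in knockout and to 43.1, 62.5 and 23.2 in wild type. The 8 granulocyte markers summed to 172 in knockout replicate 2 and 154 in wild-type replicate 1, and to 1.53 to 9.87 elsewhere. The 3 T cell markers summed to no more than 0.205 and the 3 erythroid markers to no more than 0.137 in any library. The 4 megakaryocyte markers summed to 122 in wild-type replicate 3 and to 12.2 to 32.5 in the others. The 5 osteoclast markers summed to 147 in knockout replicate 2 and to 27.2 to 103 in the others. The 10 cell cycle markers summed to 417 in wild-type replicate 1 and to 1260 to 3052 in the others. In bulk RNA, fewer cells of a type and less RNA per cell cannot be told apart. The Y-linked gene Ddx3y was at 102 to 146 normalised CPM and Xist at no more than 0.0836 in every library, the pattern of male cells, which bears on the 3 X-linked members. Tet2 itself was at 228 and 122 normalised CPM in the libraries labelled knockout and at 104, 136 and 39.2 in wild type (log2 0.91 ± 0.56, edgeR adjusted p = 0.520), so the whole-gene count does not check the labels. An added feature of the table with no symbol, ENSMUSGKI000000001, was counted 1452 and 2245 times under the knockout label and 0 times in each wild-type library.

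The RNA comparison asks whether the 9 genes differ between the genotypes. None of the 9 passed an adjusted p of 0.05 in edgeR, a test that called 0.0135% of all 14851 genes tested. At an unadjusted p under 0.05 there were 2, Nfkbiz and Hdac1, both higher in knockout, against 13.8% of all genes (5.95% higher and 7.86% lower), and DESeq2 called 1, Nfkbiz, against 7.75%. The fitted level was higher in knockout for 7 and lower for 2, where 48.4% of all genes were higher, with a median log2 of 0.32 for the 9 genes and -0.03 for all genes tested. In 3 of 9 genes, Nfkbiz, Hdac1 and Ncor1, both knockout libraries lay above all 3 wild-type libraries. Of all tested genes 17.2% did so, and 36.2% had no overlap in either direction. Nfkbiz was the only member with an absolute log2 difference over 1, a size that 21.7% of all genes reached.

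**Figure D1:**
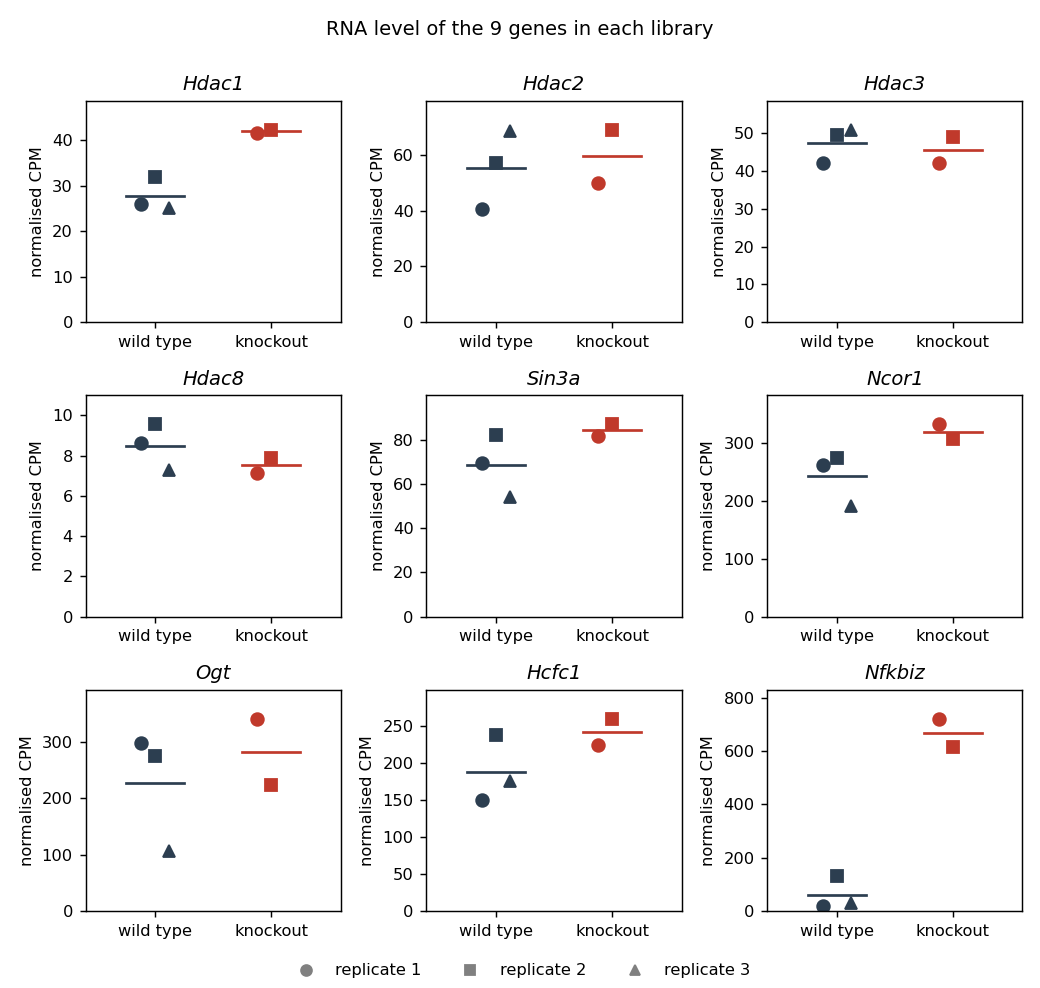
Normalised CPM (vertical axes, from 0) of the 9 genes in the 3 wild-type and 2 knockout RNA libraries, 1 symbol per library and a line at the mean of each genotype. Nfkbiz separates widely (614 and 720.1 against 18.3 to 132), Hdac1 and Ncor1 separate narrowly, and the other 6 genes overlap.

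Nfkbiz (ENSMUSG00000035356, GRCm38 chromosome 16, 55811375 to 55838954) encodes IκBζ, which is induced by Toll-like receptor and interleukin 1 signals and co-activates a subset of NF-κB target genes. It was at 720.1 and 614 normalised CPM in the libraries labelled knockout and at 18.3, 132 and 32.8 in wild type, from 11793, 16133, 268, 7173 and 1960 counts. Both knockout libraries stood at least 4.66 times above the highest wild-type library, replicate 2, and the wild-type libraries themselves spanned 7.19-fold. The means were 667 ± 74.9 (SD, n = 2) and 61.0 ± 61.8 (SD, n = 3), a fitted 10.9-fold difference (log2 3.45 ± 0.86, 95% interval 1.30 to 5.60, edgeR unadjusted p = 0.00833, adjusted p = 0.230). DESeq2 gave a log2 of 3.48 with an adjusted p of 0.00212.

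The size of this difference rested on which wild-type library was in the fit. Without wild-type replicate 2 the log2 was 4.70 ± 0.45 and the adjusted p in edgeR 0.0866. Without each of the other libraries the log2 was between 3.01 and 3.54 and the adjusted p between 0.211 and 0.995. Markers of several cell types separated the genotypes beside Nfkbiz. Among macrophage markers, Adgre1 stood at 7099.5 and 5726 normalised CPM in the knockout libraries against 759 to 2912, Cd14 at 609 and 595 against 129.9 to 307, Cd68 at 209 and 359 against 633 to 1546, and Mertk at 48.4 and 36.5 against 80.3 to 267. The B cell sum given above separated narrowly, and Ighm made up most of it in 4 of 5 libraries. Of the 7 B cell markers, the 5 tested were all higher in knockout without overlap (median log2 5.21), as were 17.2% of all genes. Unadjusted p was under 0.05 for 4 of them, against 5.95% of all genes on the higher side. DESeq2 called 4, against 7.75% of all genes, and edgeR called 0. A marker near 0 in wild type passes the filter on low counts only through the knockout libraries, which fixes its direction. These B cell counts are therefore a description only. The sum of 5 dendritic markers was 18.8 and 8.41 against 3.90, 4.37 and 2.02, mostly Batf3 (14.4 in knockout replicate 1), while Zbtb46, Flt3 and Clec9a overlapped and Clec9a was at no more than 0.457. Their part in the Nfkbiz difference was not tested. Without wild-type replicate 3, which held the stromal transcripts, the log2 of Nfkbiz was 3.15.

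The profiles most like that of Nfkbiz over the 5 libraries were those of Irf7 and Isg15, an interferon regulatory factor and an interferon-induced ubiquitin-like protein. After centring each gene on its own mean, their log2 levels differed from Nfkbiz by a root mean square of 0.26 and 0.44. The median gene of 9696 compared differed by 2.16. Irf7 was at 288 and 189.6 normalised CPM in the 2 knockout libraries and at 6.91, 64.7 and 16.7 in wild type. The order of the libraries was the same in Irf7 and Nfkbiz, with wild-type replicate 2 the highest and replicate 1 the lowest of the wild type. Irf7 and Isg15 were picked as the nearest of 9696 profiles in these same libraries, so their likeness to Nfkbiz is a description only. The other members were far from Nfkbiz on this scale, from 1.83 for Hdac1 to 2.18 for Hdac8.

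**Figure D2:**
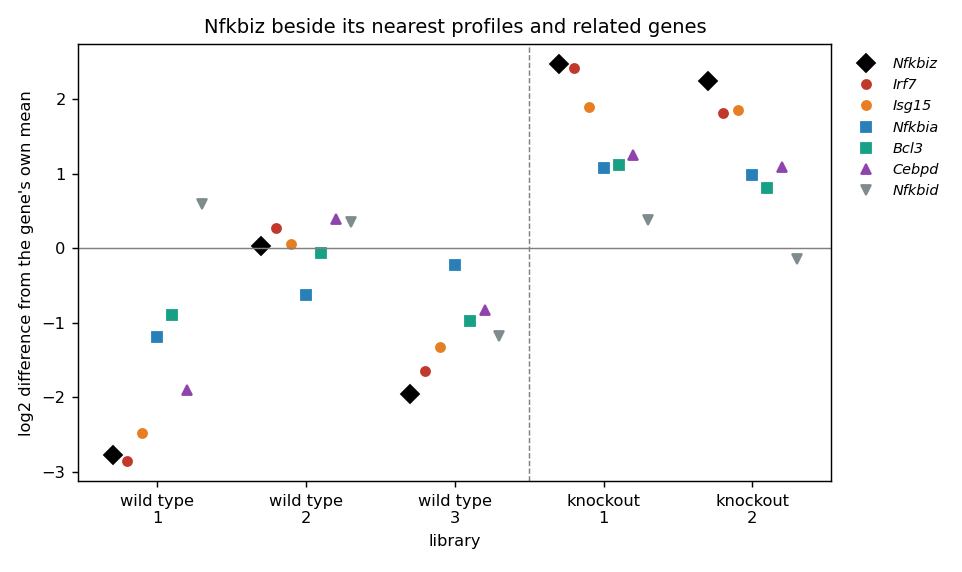
Log2 level (normalised CPM plus 0.5) relative to each gene's own mean (vertical axis) in the 5 RNA libraries (horizontal axis), 1 symbol per gene. Irf7 and Isg15, picked as the nearest profiles, differ from Nfkbiz by a root mean square of 0.26 and 0.44. Nfkbia and Bcl3 spread over a smaller range, and Nfkbid shows no separation of the genotypes.

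Among the 10 other IκB and NF-κB genes the fitted level in knockout was higher for 8 and lower for 2 (median log2 0.55), and 0 passed in edgeR. Of all genes tested, 48.4% were higher. At an unadjusted p under 0.05 there were 4, all higher, against 5.95% of all genes on that side. DESeq2 called 3 of the 4, against 7.75% of all genes in either direction. Nfkbia, the classical cytoplasmic inhibitor, was at 321 and 299 normalised CPM against 66.0, 97.9 and 129 (log2 1.66 ± 0.32, edgeR adjusted p = 0.188). Bcl3, a nuclear IκB protein like IκBζ, was at 65.6 and 52.7 against 15.9, 28.6 and 14.9 (log2 1.58, edgeR adjusted p = 0.206). In both genes the knockout libraries lay above the wild type, by less than in Nfkbiz. The remaining nuclear family member on the list, Nfkbid, was at 35.4 and 24.3 against 41.2, 34.7 and 11.7, with full overlap. On the lower side, Rela, the main activating subunit, had a log2 of -0.44 and Nfkbib of -0.03. The number of Nfkbiz counts per Nfkbia count was 2.24 and 2.05 in knockout and 0.278, 1.35 and 0.254 in wild type. Leaving out 1 library at a time kept 7 to 9 of the 10 genes on the higher side.

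Genes known to need IκBζ in stimulated macrophages were on the same side as Nfkbiz. All 7 tested of 8 were fitted higher in knockout (median log2 2.34), where 48.4% of all genes were higher, and 0 passed in edgeR. An unadjusted p under 0.05 was reached by 3, against 5.95% of all genes on the higher side. DESeq2 called 2, against 7.75% of all genes. Edn1 overlapped between genotypes (5.07 and 1.26 normalised CPM in knockout against 0, 0.0919 and 2.16), and Il12b was at no more than 1.59 in any library. All 7 stayed on that side with each library left out in turn, at a median log2 of 2.14 to 2.87. Il6, the described target of the TET2 and HDAC2 pair, was at 10.3 and 6.74 normalised CPM in the 2 knockout libraries and at 0.0684, 0.0735 and 3.24 in wild type (log2 2.87, edgeR adjusted p = 0.483). Wild-type replicate 3, which carries the stromal transcripts, held nearly all of the wild-type Il6 counts (194 against 1 and 4). Ptges, a prostaglandin E synthase, was at 13.9 and 25.2 against 3.01, 2.35 and 6.18 (log2 2.34, edgeR adjusted p = 0.210). Csf3, the granulocyte growth factor gene, had 61 and 21 counts in knockout and 0, 1 and 2 in wild type. It passed the filter on low counts only through the knockout libraries, so its direction was fixed by the filter. Csf3 is nevertheless counted among the 7 higher genes, the 3 with a low p and the 2 DESeq2 calls. Il6, Edn1 and Il12b (0, 0.625 and 0.0836 normalised CPM in wild type) were near 0 in all but 1 wild-type library. They too needed knockout counts to pass the filter, which favoured the higher side. The shared direction of the 7, also with each library left out, is therefore a description only. Cebpd, a transcription factor gene of the acute phase response, was at 103 and 92.0 normalised CPM against 11.1, 56.4 and 24.0, with wild-type replicate 2 again the highest. Csf2 had 8 counts in knockout replicate 1 and 0 elsewhere and was not tested.

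Hdac1 (ENSMUSG00000028800, chromosome 4, 129516104 to 129542646), a catalytic subunit shared by several corepressor complexes, was at 41.6 and 42.3 normalised CPM in the 2 knockout libraries and at 26.1, 31.8 and 25.1 in wild type. The knockout libraries agreed closely and lay 1.31 times above the highest wild-type library. The fitted difference was 1.52-fold (log2 0.60 ± 0.21, 95% interval 0.07 to 1.13, edgeR unadjusted p = 0.0325, adjusted p = 0.317). DESeq2 gave an adjusted p of 0.0550. The log2 stayed between 0.53 and 0.71 with each library left out.

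Hdac2 (ENSMUSG00000019777, chromosome 10, 36974297 to 37001889), the close paralogue that TET2 is known to recruit, was at 49.9 and 69.2 normalised CPM in the 2 knockout libraries and at 40.5, 57.3 and 68.8 in wild type. The genotypes overlapped, 1 knockout library lying within the wild-type range and the other just above it, with log2 0.10 ± 0.30 and a 95% interval of -0.64 to 0.85 (edgeR adjusted p = 0.907). A difference of about the size seen in Hdac1 lies inside that interval. Its lowest library, wild-type replicate 1, also had the lowest sum of cell cycle markers, 417 normalised CPM, and the next lowest, knockout replicate 1, had the next lowest sum, 1260. The order did not hold above these: wild-type replicate 2 had the highest sum, 3052, and a lower Hdac2 level than wild-type replicate 3, with 2139, and knockout replicate 2, with 2556. The part of proliferation in the Hdac2 level was not tested. Hdac2 counts per Hdac1 count were 1.20 and 1.63 in knockout and 1.55, 1.80 and 2.73 in wild type, so the ratio of the paralogues overlapped between genotypes.

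Hdac3 (ENSMUSG00000024454, chromosome 18, 37936971 to 37955015), the deacetylase of the NCoR/SMRT complex, had the smallest ratio of highest to lowest wild-type library among the members, 1.21. It was at 42.0 and 49.1 normalised CPM in the 2 knockout libraries and at 42.1, 49.5 and 51.0 in wild type (log2 -0.06 ± 0.20, 95% interval -0.57 to 0.44, edgeR adjusted p = 0.918). Hdac8 (ENSMUSG00000067567, chromosome X, 102284638 to 102505381), which works outside these complexes and deacetylates cohesin, had the fewest counts of the 9 genes. It was at 7.14 and 7.88 normalised CPM against 8.62, 9.56 and 7.29 (log2 -0.18 ± 0.31, edgeR adjusted p = 0.838), and both genotypes overlapped. Changes beyond about 1.5-fold in Hdac3, in either direction, lie outside its interval.

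The other deacetylase list held 14 tested genes of the class II, class IV and sirtuin families. There 4 were fitted higher in knockout and 10 lower (median log2 -0.20), and 0 passed in edgeR or DESeq2. Unadjusted p was under 0.05 for 1, against 13.8% of all genes. That gene, Hdac11, stood at 0.611 and 0.343 normalised CPM with Tet2 knocked out and at 1.71, 1.53 and 1.20 in wild type (log2 -1.64, edgeR adjusted p = 0.299). Sirt2 was at 60.2 and 49.4 against 147, 73.2 and 78.4 (log2 -0.86, edgeR adjusted p = 0.391). On the higher side, Sirt6 had a log2 of 0.36 and Hdac10 of 0.24. In 5 genes of this list the knockout libraries lay below all wild-type libraries and in 1 above them, against 19% and 17.2% of all genes.

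Sin3a (ENSMUSG00000042557, chromosome 9, 57071991 to 57128368), the scaffold that holds HDAC1 and HDAC2, was at 81.7 and 86.9 normalised CPM in the 2 knockout libraries and at 69.5, 81.9 and 53.9 in wild type. The lower knockout library and the higher wild-type library were at nearly the same level (log2 0.30 ± 0.24, 95% interval -0.29 to 0.89, edgeR adjusted p = 0.605). Ncor1 (ENSMUSG00000018501, chromosome 11, 62315663 to 62457414), the nuclear receptor corepressor that activates HDAC3, was at 332 and 306 against 261, 273 and 191. The knockout libraries lay 1.12 times above the highest wild-type library (log2 0.40 ± 0.25, 95% interval -0.22 to 1.02, edgeR adjusted p = 0.525). The 2 scaffolds had the most similar profiles of any pair of members, with a root mean square difference of 0.10 in centred log2 level. Both were lowest in wild-type replicate 3, and without it their log2 differences were 0.15 and 0.25. As a ratio, Hdac3 counts per Ncor1 count were 0.127 and 0.160 in knockout and 0.161, 0.181 and 0.267 in wild type, which just separates the genotypes.

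**Figure D3:**
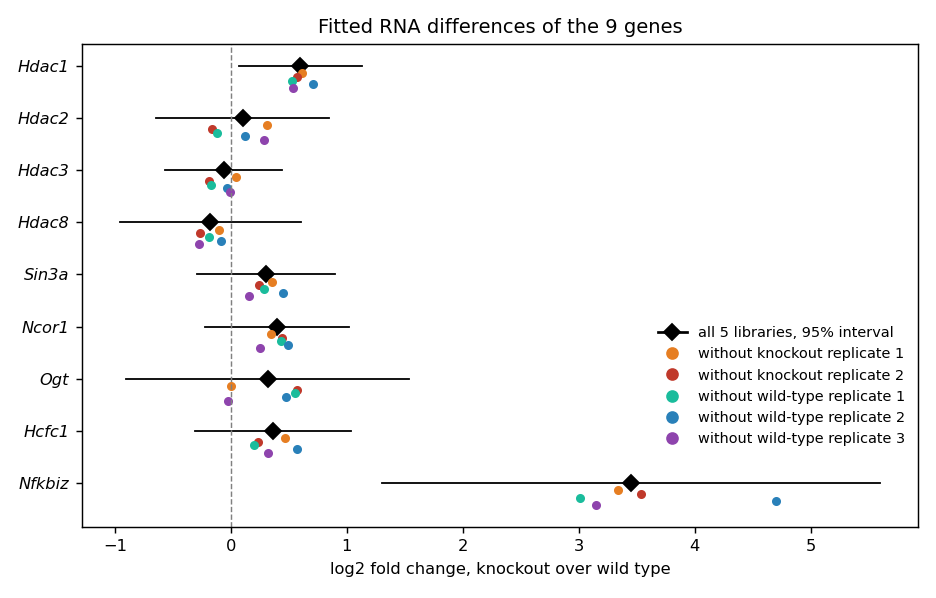
Fitted log2 fold change of knockout over wild type (horizontal axis) for the 9 genes, as diamonds with 95% intervals from all 5 RNA libraries and as coloured points with 1 library left out. The intervals of 7 genes include 0, and the interval of Nfkbiz lies furthest from it, at 1.30 to 5.60.

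Subunits of the deacetylase complexes were fitted on both sides of 0 in each of 4 lists, and 0 passed in edgeR. Unadjusted p was under 0.05 for 1 SIN3 gene, 2 NCoR/SMRT genes and 0 NuRD or CoREST genes, against 13.8% of all genes. Of 17 tested SIN3 complex genes, 10 were fitted higher in knockout and 7 lower (median log2 0.10). Sinhcaf (log2 0.92) and Phf12 (0.80) were the leading higher genes by p, and Sap30l (-0.62) and Suds3 (-0.39) the leading lower ones. Of 7 NCoR/SMRT genes, 5 were higher and 2 lower (median log2 0.39). The 2 TBL1 paralogues of that complex, which bind histone tails, stood on opposite sides. Tbl1x was at 136 and 143 normalised CPM against 79.5, 104 and 89.5 (log2 0.61, edgeR adjusted p = 0.298), and Tbl1xr1 at 91.5 and 144 against 279, 225 and 169 (log2 -0.93, edgeR adjusted p = 0.323). The genotypes did not overlap in either gene. Kdm4a had a log2 of 0.49 and Gps2 of -0.01.

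NuRD genes divided into 6 higher and 4 lower (median log2 0.12). Mta2, a scaffold of that complex, was at 214 and 202 normalised CPM against 154, 156 and 151 (log2 0.44, edgeR adjusted p = 0.380). It was the 1 gene of these 4 lists that DESeq2 called (adjusted p = 0.0249), against 7.75% of all genes. The next by p were Cdk2ap1 (log2 0.32) on the higher side and Mta3 (-0.38) and Chd3 (-0.11) on the lower. CoREST genes divided into 4 and 4 (median log2 0.02), with Phf21a (0.57), Rcor2 (1.22), Hmg20b (-0.60) and Rcor1 (-0.39) leading by p. Rcor2 rested on low levels, at 2.56 and 3.35 normalised CPM against 0.205, 0.643 and 2.88.

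**Figure D4:**
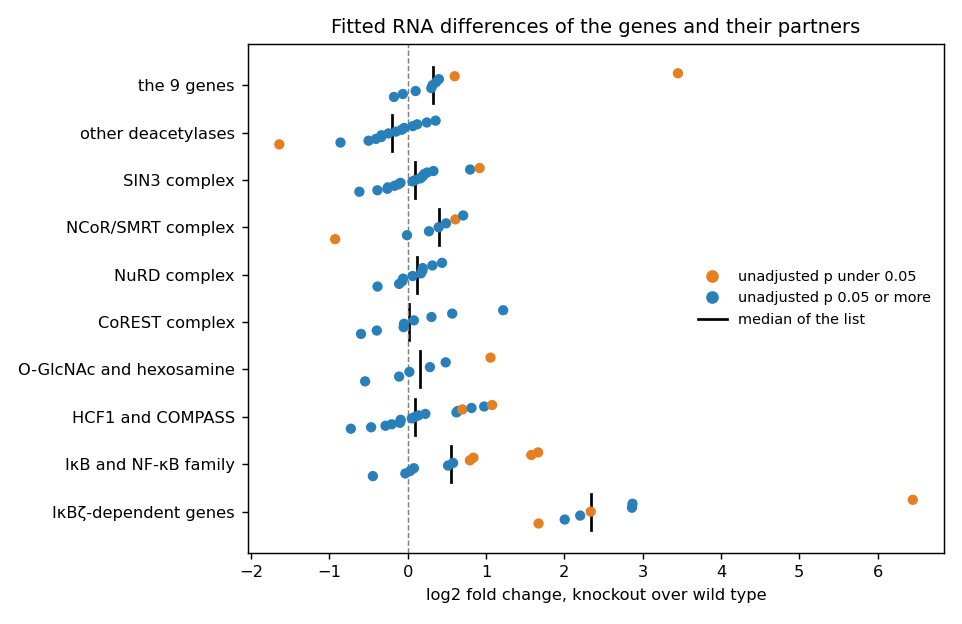
Fitted log2 fold change of knockout over wild type (horizontal axis) of each tested gene in the group of 9 and in 9 lists of partners, with the median of each list as a vertical line. The deacetylase, complex and cofactor lists centre between -0.20 and 0.39, and the genes that depend on IκBζ all lie above 1.

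Ogt (ENSMUSG00000034160, chromosome X, 101640011 to 101684351), the only enzyme that adds the nuclear O-GlcNAc mark, was at 341 and 224 normalised CPM in the 2 knockout libraries and at 298, 274 and 107 in wild type. It was the member with the widest spread inside a genotype after Nfkbiz, 2.78-fold in wild type, and the genotypes overlapped (log2 0.32 ± 0.49, 95% interval -0.90 to 1.54, edgeR adjusted p = 0.802). The difference rested on single libraries: without wild-type replicate 3 the log2 was -0.02 ± 0.29, and without knockout replicate 1 it was 0.0012 ± 0.65. Wild-type replicate 3 was also low for several chromatin genes of the lists, picked after their values were seen. Among them were Kmt2d (53.5 normalised CPM against 215 to 376 elsewhere), Setd1b (5.01 against 27.5 to 52.0) and Tet3 (58.3 against 181 to 270.4). Other listed genes went the other way. Wild-type replicate 3 was the highest library for Ash2l (73.0 against 50.2 to 66.6) and Gabpa (78.7 against 50.8 to 70.1). Of 3 nuclear RNAs examined after the Ogt values were seen, it was the lowest for Kcnq1ot1 (40.6 against 196 to 362) and, by little, for Malat1 (5627 against 5806 to 18414). For Neat1 it was at 605, above knockout replicate 2 at 489 and below the others at 1710.1 to 2420.1. The part of the nuclear RNA content of a library in the Ogt level was not tested.

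The opposing enzyme, O-GlcNAcase, is listed under its older symbol Mgea5. It was even across libraries, at 167 and 138 normalised CPM against 159.7, 156 and 136 (log2 0.02, edgeR adjusted p = 0.971). Ogt counts per Mgea5 count were 2.04 and 1.62 in knockout and 1.87, 1.76 and 0.791 in wild type. Of 6 tested O-GlcNAc and hexosamine genes, 4 were higher and 2 lower, and 0 passed in edgeR. Unadjusted p was under 0.05 for 1, Gfpt1, against 13.8% of all genes. Gfpt1, the entry enzyme of the pathway that makes the sugar donor of OGT, was at 121 and 111 against 48.3, 62.3 and 56.1. Both knockout libraries lay above all wild-type libraries (log2 1.06 ± 0.20, edgeR unadjusted p = 0.00224, adjusted p = 0.181), and DESeq2 called it (adjusted p = 1.9e-04). Pgm3 had a log2 of 0.48, Nagk of -0.54 and Uap1 of -0.11.

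Hcfc1 (ENSMUSG00000031386, chromosome X, 73942792 to 73966995) was at 224 and 259.5 normalised CPM in the 2 knockout libraries and at 150.0, 238 and 176 in wild type. Wild-type replicate 2 lay between the knockout libraries (log2 0.36 ± 0.27, 95% interval -0.31 to 1.04, edgeR adjusted p = 0.589). Its relative Hcfc2 separated further, at 80.8 and 75.9 against 38.1, 42.0 and 31.4 (log2 1.08 ± 0.20, edgeR unadjusted p = 0.00244, adjusted p = 0.183), and DESeq2 called it (adjusted p = 4.9e-05). Of the 17 HCF1 partners and COMPASS methyltransferase genes, Hcfc2 among them, 10 were higher and 7 lower (median log2 0.09), and 0 passed in edgeR. Unadjusted p was under 0.05 for 2 (Hcfc2 and Asxl1), against 13.8% of all genes. Asxl1 had a log2 of 0.70, Hcfc1r1 of -0.73 and Thap11 of -0.47.

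Members other than Nfkbiz had near neighbours of many kinds by profile. The nearest to Hdac1 was Hcls1 (root mean square difference 0.03 in centred log2 level), to Hdac2 Atp5o (0.02), to Hdac3 Wdr48 (0.03) and to Hdac8 Tfb2m (0.04). The nearest to Sin3a was Btk (0.03), followed by Coro2a (0.03), a gene of the NCoR/SMRT list. The nearest to Ncor1 was Cltc (0.02), to Ogt Nbeal2 (0.07) and to Hcfc1 Tubd1 (0.05). With 5 libraries, such close profiles among 9696 genes are a description only.

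The 5hmC comparison asks whether the mark differs at the 9 genes. Of 9151 listed peaks, 2 overlapped a member's gene body, 1 in Hdac2 and 1 in Nfkbiz, and both had been called in wild type. The other 7 genes had none, although Hdac8 spans 220744 bp and Ncor1 141752 bp. Of all genes tested in RNA and placed once on the genome, 24.5% had a listed peak over the body. Among those within the length range of the members it was 36.5%, and among those at least as long as Ncor1 66.4%. On chromosome X, which carries Ogt, Hcfc1 and Hdac8 and only 68 listed peaks, it was 6.72%. The 5hmC libraries summed over peaks to 46230 and 42489 counts (knockout) and 42678 and 219116 (wild type), which limits what can be seen at a single peak.

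Promoter stretches are shown because the cytosines of CG pairs are where TET2 acts, and the members differ in how many their promoters hold. RefSeq promoter windows (GRCm38.p6), 250 bases before to 50 after a start, were matched for 6 members, with 9 windows. None was overlapped by a listed 5hmC peak, as was the case for all but 0.326% of 32851 windows. The motif CG, the same on both strands, occurred 36 times in the window of Hdac2 and in 1 of the 2 windows of Ncor1, where the median of all windows is 7. It occurred 6 times in that of Hdac8. The stretches that lie before the RefSeq gene bodies of Ncor1 (chr11:62457415-62457582, minus strand, 26 CG in 168 bases) and Ogt (chrX:101639801-101640010, plus strand, 11 CG in 210 bases) are printed 5′ to 3′ with CG in capitals, a dense and a sparser example.
Ncor1: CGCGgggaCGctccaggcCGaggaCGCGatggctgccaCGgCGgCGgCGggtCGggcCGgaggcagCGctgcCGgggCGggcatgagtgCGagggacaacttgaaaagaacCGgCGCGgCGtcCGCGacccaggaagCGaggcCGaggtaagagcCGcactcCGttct
Ogt: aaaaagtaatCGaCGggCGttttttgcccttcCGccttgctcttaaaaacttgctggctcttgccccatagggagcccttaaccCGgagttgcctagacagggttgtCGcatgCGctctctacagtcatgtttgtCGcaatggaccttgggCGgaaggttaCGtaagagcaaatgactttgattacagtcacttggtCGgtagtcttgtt

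The peak in Hdac2 (chr10:36978356-36978752) lies 4059 bp inside the gene from its start on the plus strand. Knockout gave 5 and 3 counts there, and wild type 7 and 20. Per 100000 peak counts this was 10.8 (exact Poisson 95% interval 3.51 to 25.2) and 7.06 (1.46 to 20.6) in knockout. In wild type it was 16.4 (6.59 to 33.8) and 9.13 (5.58 to 14.1). All 4 intervals overlapped, so no difference was detectable at this depth.

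The peak in Nfkbiz (chr16:55832072-55832456) lies 20697 bp from the lower and 6498 bp from the higher coordinate of the gene. It had 4 and 2 counts in knockout and 2 and 28 in wild type, or 8.65 (2.36 to 22.2), 4.71 (0.570 to 17.0), 4.69 (0.568 to 16.9) and 12.8 (8.49 to 18.5) per 100000. Wild-type replicate 1 was as low as knockout replicate 2, and all 4 intervals overlapped here too. Intervals cover counting error only. The exon structure was not used here, so neither peak was placed in an exon or intron.

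**Figure D5:**
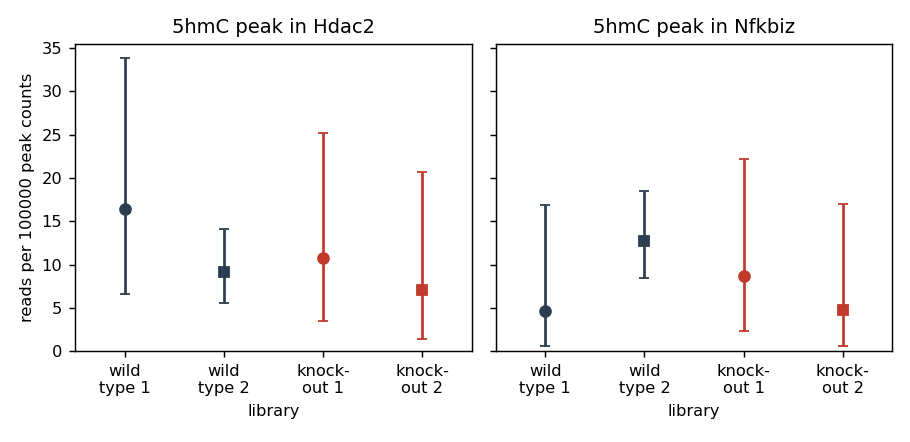
Reads per 100000 peak counts (vertical axis, from 0) at the 5hmC peaks in Hdac2 and Nfkbiz in the 4 libraries, with exact Poisson 95% intervals for counting error. The intervals overlap within each peak.

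Neither peak passed the filter on low counts, so neither was tested against all peaks, of which 19.7% of the 859 tested were called (17.9% higher in knockout and 1.75% lower). In a fit with no such filter the log2 differences were 0.26 for Hdac2 (edgeR adjusted p = 0.919) and -0.30 for Nfkbiz (edgeR adjusted p = 0.897). DESeq2, with the knockout libraries as 2 samples, gave -0.01 and -0.11 (adjusted p = 0.997 and 0.981). For Hdac2 the sign in edgeR is opposite to that in DESeq2 and to the counts per 100000, which were 9.02 over both knockout libraries and 16.4 and 9.13 in wild type. There the 2 knockout libraries entered as 1 sample, because their counts were closer than sampling noise alone gives, with a chi-square of 0.570 per degree of freedom. Neither peak therefore gave a direction that can be read beside the RNA values.

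Further peaks lay near the genes. Within 100 kb of Nfkbiz there were 3 more, at 29135, 34682 and 53782 bp below its lower coordinate. The nearest had 3 and 2 counts in knockout and 5 and 29 in wild type, the next 5 and 2 against 8 and 38, and the farthest, called in both genotypes, 4 and 7 against 7 and 28. Per 100000 the nearest was at 6.49 and 4.71 against 11.7 and 13.2 and the next at 10.8 and 4.71 against 18.7 and 17.3, so both wild-type libraries were above both knockout libraries at these 2 peaks. Their counting intervals overlapped, and both peaks had been called in wild type only, so they were chosen for a high wild-type count. The 7721 bp from Ncor1 to its nearest peak and the 13011 bp from Hdac3 to its own were the only gaps under 20 kb among genes without a peak of their own. Hdac1, Hdac8, Ogt and Hcfc1 had no listed peak within 100 kb.

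Among the 99 partner genes, 26 had a listed peak over the body (26.3%, against 24.5% of all genes tested in RNA). They held 38 peaks in all, of which 27 had been called in wild type, 7 in knockout and 4 in both. All 9151 listed peaks also had a wild-type majority, with 7044 called in wild type, 1151 in knockout and 956 in both. Only 2 of the 38 partner peaks were tested. The share was 8 of 18 in the SIN3 complex list, 4 of 7 in the O-GlcNAc and hexosamine list and 1 of 17 in the HCF1 and COMPASS list. Gfpt1 held the deepest of them, with 8 and 6 counts in knockout and 13 and 78 in wild type, or 17.3 and 14.1 against 30.5 and 35.6 per 100000. Both knockout libraries lay below both wild-type libraries there, but the peak did not pass (log2 -1.05 ± 0.55, edgeR adjusted p = 0.169). The tested peak in Hdac7 was even, at 21.6 and 21.2 against 16.4 and 22.8 per 100000 (log2 0.15, edgeR adjusted p = 0.860). The 7 peaks called in knockout, none of them tested, lay in Rbbp4, Rbbp7, Chd4, Gnpnat1, Nfkbib, Nfkb1 and Rel. The one in Rbbp7, a histone-binding subunit of SIN3 and NuRD, had 9 and 7 counts in knockout against 1 and 3 in wild type, or 19.5 and 16.5 against 2.34 and 1.37 per 100000. It was singled out after its values were seen, and a peak called in knockout was chosen for a high knockout count.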

How the data were processed

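The authors deposited raw counts per gene for 5 RNA libraries and raw counts per peak for 4 5hmC libraries. Per the submitters' processing notes, the tools were HTSeq, MACS2, STAR, BWA, Trim Galore and CASAVA 1.4, with the build GRCm38. Their roles, the annotation release, strand setting and duplicate handling are not stated there. Per the peak names in the deposited files, peaks came from merged libraries of each genotype. The members and lists were chosen with earlier results of these data known.

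Symbols were matched for 47224 genes, and gene positions came from RefSeq (GRCm38.p6). Each table was fitted whole with edgeR 4.0.16 (R 4.3.3): TMM scaling, filterByExpr, quasi-likelihood test, two-sided, Benjamini-Hochberg adjustment, threshold 0.05. Standard errors were taken from the fold change and F statistic. The fit was run on simulated counts with changes far larger than those fitted for every member but Nfkbiz. That run does not bear on the power for small differences. Knockout 5hmC libraries entered as 1 sample, their rounded mean. A peak belonged to a gene body it overlapped by 1 base. Named partners were up to 2 per direction with the smallest p; Mgea5, Il6, Nfkbid, Cebpd, Csf2, Hdac7, Rbbp7 and the chromatin genes beside Ogt were added after their values were seen. Alternatives used DESeq2 1.42.0 and limma 3.58.1.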

Additional observations from a re-analysis of the deposited data

How the results depend on the processing

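Of the alternative values for single members, 111 kept their direction and side of the threshold, 5 reversed, in Hdac2, Hdac3 and Ogt, and 1 crossed the threshold, Nfkbiz in DESeq2. DESeq2 called 1235 genes, 1 of them a member (Nfkbiz). Limma-voom called 1 gene, edgeR with total counts 0, edgeR at an adjusted p of 0.1 4 and edgeR without any 1 library 0 to 0. With the replicate block, which leaves wild-type replicate 3 without a partner and so without weight, 0 genes were called and Ogt had a log2 of -0.050. The labels do not say what the shared numbers mean, and deviations of same-numbered RNA libraries correlated at 0.07 and -0.09 across genes. With 1 library left out the log2 of Hdac2 ran from -0.16 to 0.31, that of Hdac3 from -0.19 to 0.045 and that of Ogt from -0.021 to 0.57, with 0.0012 without knockout replicate 1. The median over the 9 genes stayed within the spread between libraries in every setting. Of 5hmC peaks, edgeR called 169, then 303 with both knockout libraries as 2 samples, 258 with the replicate block added, 328 by DESeq2, 435 with no filter and 0 with total counts. The 169 were 154 higher and 15 lower in knockout, the 303 were 152 and 151. Without 1 knockout library it called 234 and 185. Without wild-type replicate 1 or 2 it called 505 and 331, keeping both knockout libraries, a choice made after seeing the data. The 2 peaks of members were tested only by DESeq2 and with no filter, and neither called them. The causes were not tested. Depth limits the 5hmC values: 3 counts, the floor for a count of 0, equal 6.49 and 7.06 per 100000 in knockout and 7.03 and 1.37 in wild type.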
